A study of Mus musculus with 5 samples.

Results

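Expression of 10 genes of alveolar macrophages and of the chitinase-like family was examined in whole mouse lung, across 5 arrays that each stood for a strain. The genes were Marco, Msr1, Mrc1, Chil3, Chil4, Csf2rb2, Itgax, Pparg, Fabp1 and Cd68, out of 18194 genes with a probe set of their own. They were taken by name from the platform annotation as all probe sets that carried a single symbol of the list, which gave 15 probe sets. All mice were female and naive, with no elastase given. The study looked for genes tied to a compound against emphysema and set each strain against C57. Strain 4B(-/-) was the knockout and 4B(+/+) the wild-type line for PDE4B, 4D(-/-) was the knockout and 4D(+/+) the wild-type line for PDE4D, and C57 was C57BL/6J. PDE4B and PDE4D are phosphodiesterases that degrade cyclic AMP. The 4 lines came from a C57BL/6 × 129/Ola background and had at least 11 generations of backcrossing to C57BL/6J. Per strain 5 lungs were collected, RNA of 3 of them was mixed, and the mixture was hybridised to 1 array, so no difference between strains had a replicate check and no p-value is given. The labels give neither the age of the mice nor the part of each gene that was deleted.

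Alveolar macrophages live on the air side of the alveoli, where they take up inhaled particles, microbes and used surfactant. Their identity depends on the cytokine GM-CSF, made largely by alveolar type 2 cells, which signals through a receptor with a shared beta chain and induces the nuclear receptor PPAR gamma, a regulator of lipid handling. Chitinase-like proteins bind sugars but do not cut chitin, and in mice they are secreted in large amounts by macrophages in settings of type 2 immunity. Cyclic AMP dampens many responses of macrophages and neutrophils, which is the usual reason for interest in PDE4 inhibitors in lung disease. In RNA from whole lung, fewer macrophages and less RNA per macrophage cannot be told apart.

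The arrays were alike in overall level, with median intensities between 45.4 and 46.6 and between 43.7% and 44.0% of probe sets at an intensity of at least 64. This value, log2 6, served as the floor: a gene was counted if its highest array reached it, which held for 11500 genes. The brightest probe set stood for a gene. Both targeted genes kept signal in their knockouts: Pde4d, with 1 probe set above that level, had 386 in 4D(-/-) against 523 in 4D(+/+), and Pde4b, by its brightest, had 457 in 4B(-/-) against 558 in 4B(+/+). Since the deleted parts are not given, these values do not check the labels. Both wild-type lines were above C57 in markers of other tissues. All 10 skeletal muscle genes were at least 1.5-fold above C57 in each, with a median log2 difference of 3.07 in 4D(+/+) and 1.03 in 4B(+/+), and so were 6 of 8 adipose genes in 4D(+/+) (median 1.57) and 7 of 8 in 4B(+/+) (median 1.62). The knockouts shared this in part, with all 10 muscle genes in 4D(-/-) (median 0.93) and 5 of 8 adipose genes in 4B(-/-) (median 0.81). Adipose genes in 4D(-/-) had 0 of 8 higher and 2 lower (median -0.32). Muscle genes in 4B(-/-) had 1 of 10 higher and 3 lower (median 0.08). The 3' to 5' ratio of the Gapdh control was 1.77 in 4D(-/-) and 1.31 in 4D(+/+), while that of actin was 1.86 and 1.83 in the same arrays.

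Of the 10 genes, 9 reached the floor. Msr1 did not in any array, and Chil4 did so only in 4D(-/-), so that its inclusion depended on the array in which it was high. The 4D(-/-) array was the highest of the 5 for 7 of the 9 genes, and 17.9% of all 11500 genes had their highest value there. The 4D(+/+) array was the lowest for 5 of the 9, against 20.0% of all genes. Pparg was the 1 gene with its lowest value in 4D(-/-), beside 29.9% of all genes, and Pparg and Cd68 were highest in 4B(+/+), beside 10.8%.

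In 4D(-/-) lung, 5 of the 9 genes were at least 1.5-fold higher than in 4D(+/+), namely Marco, Chil4, Csf2rb2, Fabp1 and Chil3, beside 1.1% of all genes, and 0 were at least 1.5-fold lower, beside 4.53%. At 2-fold the count was 3, Marco, Csf2rb2 and Chil4, beside 0.209% of all genes, and 0 were lower, beside 1.51%. Chil4 enters both counts through the 4D(-/-) array alone, with all its other values under the floor. In 4B(-/-) lung 0 of the 9 passed 1.5-fold in either direction against 4B(+/+), beside 0.383% of all genes that were higher and 0.93% that were lower. The median log2 difference of the 9 genes was 0.63 in the PDE4D comparison and -0.25 in the PDE4B comparison, where all genes had medians of 0.00 and 0.01.

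**Figure D1:**
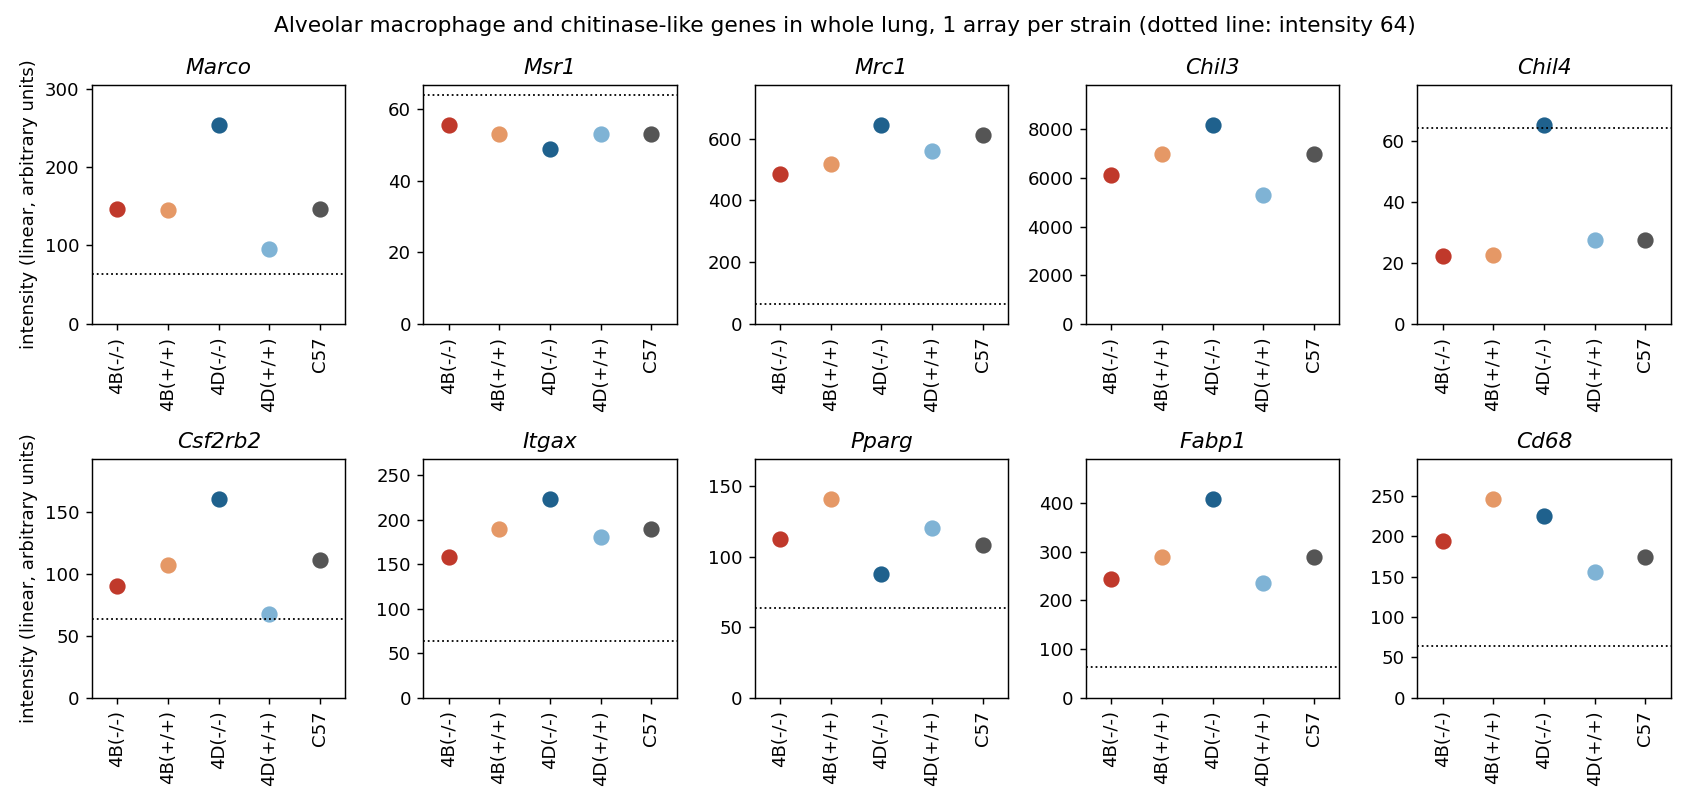
Intensity on a linear scale, in arbitrary units, of the brightest probe set of each gene, with 1 point per array and its own axis per gene, starting at 0. The dotted line marks the floor of 64 and is left out for Chil3. The 4D(-/-) point is the highest for 7 genes, among them Marco at 254 and Chil4 at 65.2, and the lowest for Pparg at 87.6 and for Msr1, below the floor, at 48.8.

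The promoters shown are those of the 5 genes at least 1.5-fold higher in 4D(-/-) than in 4D(+/+), a set that depends on both arrays. Each is the 250 bases before the annotated start, 5′ to 3′ on the gene's strand, from RefSeq on build GRCm38.p6, which held windows for 9 of the 10 genes. The windows are chr1:120505025-120505274 on the minus strand for Marco, chr15:78305722-78305971 on the minus strand for Csf2rb2, chr3:106167565-106167814 and chr3:106219480-106219729, both on the minus strand, for Chil3 and Chil4, and chr6:71199629-71199878 on the plus strand for Fabp1. Capitals mark matches, on either strand, to TTCNNNGAA, the spaced palindrome bound by STAT factors such as those activated by GM-CSF, to GAGGAA, a core bound by the myeloid factor PU.1, and to AGGTCA, the half-site of many nuclear receptors including PPAR gamma.
Marco: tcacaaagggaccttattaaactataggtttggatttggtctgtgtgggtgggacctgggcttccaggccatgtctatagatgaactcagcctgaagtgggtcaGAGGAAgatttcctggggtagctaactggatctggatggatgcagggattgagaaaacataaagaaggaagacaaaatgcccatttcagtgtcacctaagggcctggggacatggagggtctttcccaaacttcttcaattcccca
Csf2rb2: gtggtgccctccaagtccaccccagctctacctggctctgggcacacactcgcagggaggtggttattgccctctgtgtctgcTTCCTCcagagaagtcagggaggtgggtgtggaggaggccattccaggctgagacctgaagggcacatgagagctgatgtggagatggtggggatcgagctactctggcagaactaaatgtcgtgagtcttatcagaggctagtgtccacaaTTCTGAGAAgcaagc
Chil3: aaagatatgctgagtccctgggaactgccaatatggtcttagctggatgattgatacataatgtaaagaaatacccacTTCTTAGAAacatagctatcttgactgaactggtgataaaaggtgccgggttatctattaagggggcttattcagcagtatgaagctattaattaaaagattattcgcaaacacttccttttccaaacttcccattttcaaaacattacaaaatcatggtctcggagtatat
Chil4: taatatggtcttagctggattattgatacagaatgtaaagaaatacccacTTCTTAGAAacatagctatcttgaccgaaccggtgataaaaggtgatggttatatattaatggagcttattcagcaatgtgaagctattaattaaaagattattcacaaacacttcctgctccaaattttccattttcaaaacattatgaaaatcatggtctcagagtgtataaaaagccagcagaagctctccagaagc
Fabp1: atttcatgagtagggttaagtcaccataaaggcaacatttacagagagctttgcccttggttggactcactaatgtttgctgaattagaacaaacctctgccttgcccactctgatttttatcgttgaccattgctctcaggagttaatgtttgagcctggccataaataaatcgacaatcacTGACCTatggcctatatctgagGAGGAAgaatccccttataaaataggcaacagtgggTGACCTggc

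The palindrome TTCNNNGAA was found in Chil3, Chil4 and Csf2rb2, which is 3 of the 9 genes with a window, and in 7.02% of 32851 promoter windows of the same length. The 9 genes had 11 windows, 3 of them of Pparg, and counted by window the palindrome was in 3 of the 11. Chil3 and Chil4 carry the same letters, TTCTTAGAA, starting 172 and 200 bases before the annotated starts, and Csf2rb2 carries TTCTGAGAA, starting 15 bases before. The Chil3 and Chil4 windows are near-copies, as described below, so their matches are not independent and the 3 of 9 counts a shared site more than once. GAGGAA was found in 6 of the 9 genes, Marco, Csf2rb2, Fabp1, Mrc1, Pparg and Cd68, which is 6 of the 11 windows, and in 23.3% of all windows. AGGTCA was found in Fabp1, at 2 places, and in 2 windows of Pparg, which is 3 of the 11 windows, beside 14.0% of all windows. No match overlapped another in the windows shown. Matches describe letters only and say nothing of binding in these lungs.

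The Chil3 and Chil4 windows are near-copies of each other. Aligned with an offset of 28 bases between their annotated starts, 201 of 221 bases were identical, 91.0%, with 2 gap positions. These neighbouring genes arose by duplication, and their transcripts are alike enough that the array holds a probe set annotated to both.

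Among the scavenger receptors, Marco showed the widest separation. Marco binds bacteria and particles on macrophages of the lung and of the splenic marginal zone. Its brighter probe set read 254 in 4D(-/-) and 95.5 in 4D(+/+), and it read 146 in 4B(-/-), 145 in 4B(+/+) and 146 in C57. The 3 arrays other than those of the 4D line were thus nearly equal, with 4D(-/-) above them and 4D(+/+) below. The difference within the 4D line was 2.66-fold, the 7th largest upward difference of 11500 genes, and the wild-type arrays spanned 1.53-fold. Against the mean of C57 and 4B(+/+), 4D(-/-) was 1.74-fold higher. Marco's dimmer probe set read 65.2 in 4D(-/-), 41.5 in 4D(+/+), 53.8 in 4B(-/-), 57.7 in 4B(+/+) and 49.1 in C57, and since 4D(-/-) alone reached the floor there, its order and fold are not read further.

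Msr1 could not be read at this level and Mrc1 differed little. For Msr1, the class A scavenger receptor of modified lipoproteins, all 4 probe sets stayed below 64, and the brightest read 55.6 in 4B(-/-), 48.8 in 4D(-/-) and 53.0 in each of the 3 wild-type arrays. Mrc1, the mannose receptor of alternatively activated and resident macrophages, read 645 in 4D(-/-), 559 in 4D(+/+), 486 in 4B(-/-), 516 in 4B(+/+) and 612 in C57. Its 1.15-fold difference within the 4D line was smaller than the 1.19-fold span of the wild-type arrays.

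Chil3 encodes the abundant secreted lectin Ym1. It read 8183 in 4D(-/-), 5291 in 4D(+/+), 6119 in 4B(-/-), 6963 in 4B(+/+) and 6991 in C57. C57 and 4B(+/+) were alike, 4D(-/-) lay 1.17-fold above C57, and 4D(+/+) lay 1.32-fold below it. Measured from the single C57 array, most of the 1.55-fold difference within the 4D line therefore lay on the 4D(+/+) side.

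Chil4, encoding the related Ym2, read 65.2 in 4D(-/-) and 27.5 in 4D(+/+), against 22.1 in 4B(-/-), 22.7 in 4B(+/+) and 27.5 in C57. Only 4D(-/-) was above the floor, and by little, so the 2.38-fold difference rests on values near background. The probe set annotated to both Chil3 and Chil4 behaved differently: it read 2916 in 4D(-/-), 1493 in 4D(+/+), 2468 in 4B(-/-), 3080 in 4B(+/+) and 2365 in C57. There 4B(+/+), not 4D(-/-), was the highest array, and the 1.95-fold difference within the 4D line again came with a low 4D(+/+).

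Csf2rb2 encodes the interleukin 3 receptor beta chain that mice carry beside the common beta chain Csf2rb. It read 161 in 4D(-/-) and 67.6 in 4D(+/+), and 90.2 in 4B(-/-), 108 in 4B(+/+) and 112 in C57. The 4D line held both extremes, 2.39-fold apart, and the wild-type arrays spanned 1.66-fold. Csf2rb, the common chain of the GM-CSF, interleukin 3 and interleukin 5 receptors, had the same order of extremes: its brighter probe set read 660 in 4D(-/-), 417 in 4D(+/+), 428 in 4B(-/-), 535 in 4B(+/+) and 538 in C57. Its dimmer probe set read 112 in 4D(-/-), 74.8 in 4D(+/+), 83.1 in 4B(-/-), 108 in 4B(+/+) and 91.4 in C57, again with 4D(-/-) highest and 4D(+/+) lowest. The 2 genes are near-identical copies, and a probe set annotated to both read between 51.9 and 65.7 over the 5 arrays, 1.12-fold higher in 4D(-/-) than in 4D(+/+).

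Fabp1, a fatty acid binding protein best known from liver and gut, was represented by 2 probe sets that disagreed in part. The brighter read 410 in 4D(-/-), 235 in 4D(+/+), 243 in 4B(-/-), 290 in 4B(+/+) and 290 in C57, so 4D(-/-) was 1.41-fold above the next array. The dimmer read 150 in 4D(-/-), 89.3 in 4D(+/+), 143 in 4B(-/-), 151 in 4B(+/+) and 111 in C57, where 4D(-/-) was level with both 4B arrays. Both put 4D(+/+) lowest, and the difference within the 4D line was 1.74-fold and 1.68-fold. All 8 liver and intestine markers, albumin and the intestinal Fabp2 among them, stayed below the floor in every array.

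Pparg was the exception in direction. It read 87.6 in 4D(-/-) and 121 in 4D(+/+), and 112 in 4B(-/-) and 141 in 4B(+/+), with 109 in C57. Each knockout lay below its own wild type, by 1.38-fold in the 4D line and 1.26-fold in the 4B line, and 4D(-/-) was the lowest of the 5 arrays. PPAR gamma is also the master regulator of fat cells. Counted at any size, 7 of 8 adipose markers were lower in 4B(-/-) than in 4B(+/+), all but Retn, beside 4575 of 11500 genes. In 4D(-/-) 8 of 8 were lower than in 4D(+/+), beside 5430 of 11500. At 1.5-fold the counts were 3 of 8 in 4B(-/-) and 7 of 8 in 4D(-/-), beside 0.93% and 4.53% of all genes. The summed intensity of 8 adipose genes was 3658 in 4D(-/-), against 13017 in 4D(+/+), and 8666 in 4B(-/-), against 10977 in 4B(+/+), with 4404 in C57; their part in the Pparg values was not tested.

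The remaining surface and lysosomal markers stayed under 1.5-fold in both lines. Itgax, the CD11c integrin chain of alveolar macrophages and dendritic cells, read 224 in 4D(-/-), 181 in 4D(+/+), 158 in 4B(-/-), 190 in 4B(+/+) and 190 in C57. The wild-type arrays lay within 1.05-fold, with 4D(-/-) above and 4B(-/-) below all of them. Cd68, a lysosomal glycoprotein of macrophages in general, read 225 in 4D(-/-), 156 in 4D(+/+), 195 in 4B(-/-), 247 in 4B(+/+) and 175 in C57. The wild-type arrays spanned 1.59-fold for Cd68, more than the 1.44-fold difference within the 4D line.

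**Figure D2:**
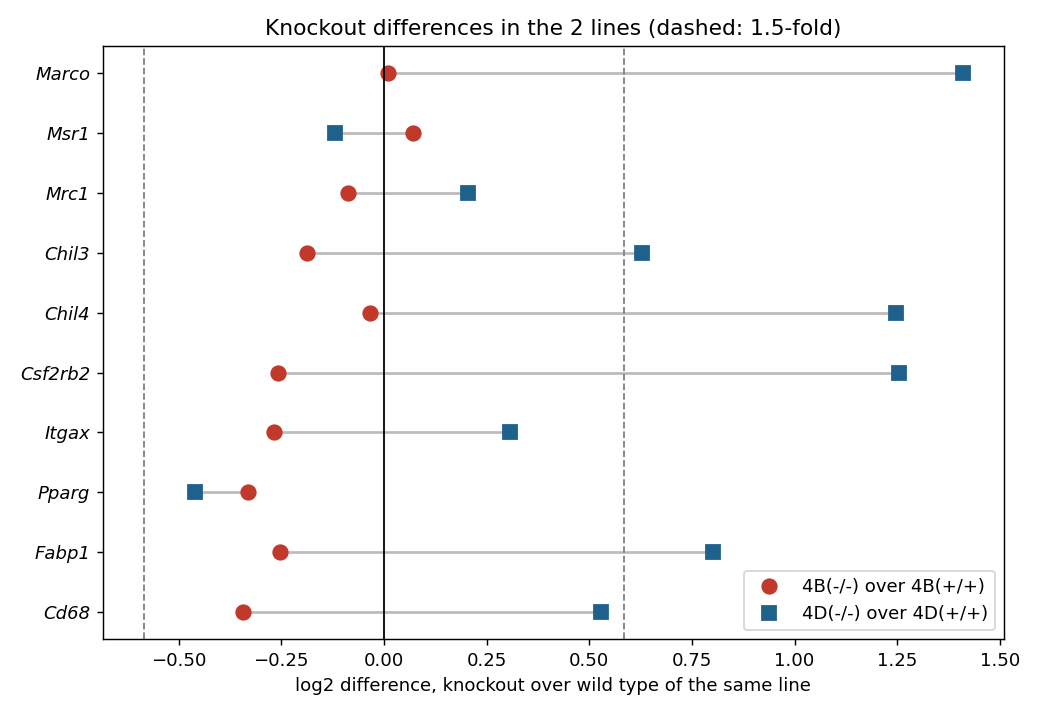
Log2 difference of each knockout over the wild type of its own line, with the PDE4B line as circles and the PDE4D line as squares, and dashed lines at 1.5-fold. Squares lie to the right of circles for every gene except Msr1 and Pparg, and 5 of them pass 1.5-fold.

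Set beside each other, the comparisons within the lines pointed opposite ways for 7 of the 9 genes, lower in 4B(-/-) and higher in 4D(-/-), an arrangement found in 22.1% of all genes. The 2 differences were not tested against each other. In the 4B line the sizes were small: the largest were Cd68 at 1.27-fold and Pparg at 1.26-fold, both lower in 4B(-/-). For Itgax alone of the 9, 1 gene, the 4B difference was larger than the span of the 3 wild-type arrays, beside 24.8% of all genes. In the 4D line this held for 7 of the 9, all but Mrc1 and Cd68, beside 40.4% of all genes, counted in either direction. Pparg is among these 7 and was lower in 4D(-/-). The span includes 4D(+/+) itself, so a gene highest in 4D(-/-) and lowest in 4D(+/+) must exceed it. That was so for Marco, Chil3, Fabp1 and Csf2rb2, for which this count repeats the order of the arrays. Chil4 is among these 7 through the 4D(-/-) array alone. The 4B(-/-) array was the lowest of the 5 for 3 genes, Mrc1, Itgax and Chil4, the last at values under the floor, beside 18.9% of all genes, and the highest for 0, beside 28.4%.

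C57, outside both lines, served as a further array to set each line against, but 1 array of pooled RNA cannot settle on which side a difference lay. Marco, 1.53-fold lower, and Csf2rb2, 1.66-fold lower, were the 2 genes of 9 at least 1.5-fold below C57 in 4D(+/+), where 1.24% of all genes were lower by that much and 4.25% higher. In 4B(+/+) 0 of 9 passed 1.5-fold either way, beside 2.23% of all genes higher and 1.33% lower. Medians against C57 were 0.36 for 4D(-/-), -0.17 for 4D(+/+), -0.25 for 4B(-/-) and -0.01 for 4B(+/+). In 4B(-/-) 0 of 9 passed 1.5-fold against C57, beside 2.53% of all genes higher and 3.57% lower. All comparisons with C57 share that array, so these values are not independent.

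The count in 4D(-/-) depended on its wild type. Against C57, 2 of 9 genes, Marco and Chil4, were at least 1.5-fold higher, beside 1.37% of all genes, and 0 lower, beside 0.791%. Against the mean of C57 and 4B(+/+), which leaves out 4D(+/+), the same 2 genes passed, beside 0.6% of all genes, 0 were lower, beside 0.583%, and the median of the 9 was 0.24. Fabp1, at 1.41-fold, and Csf2rb2, at 1.47-fold, were then just below the threshold. In both counts, and in the order given next, Chil4 enters through the 4D(-/-) array alone, with all its other values under the floor. The order of the arrays uses no reference, so it does not test this choice. By their brightest probe sets, Marco, Chil4, Fabp1 and Csf2rb2 in 4D(-/-) lay at least 1.2-fold above every other array, as 1.46% of all genes did. The dimmer Fabp1 probe set did not share this order, with 150 in 4D(-/-) and 151 in 4B(+/+).

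**Figure D3:**
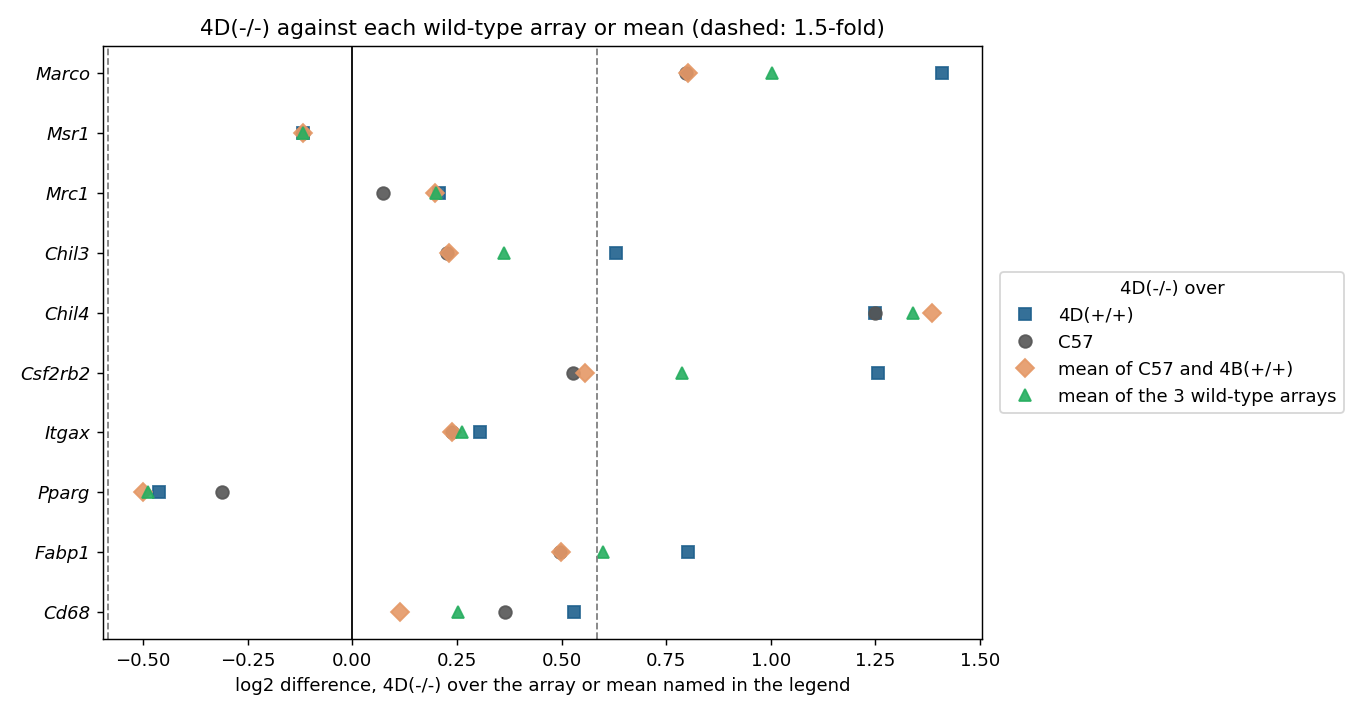
Log2 difference of 4D(-/-) over 4D(+/+), over C57, over the mean of C57 and 4B(+/+), and over the mean of the 3 wild-type arrays, with dashed lines at 1.5-fold. Marco and Chil4 lie to the right of 1.5-fold for every choice, Chil3 only for 4D(+/+), and Pparg lies to the left of 0 for every choice. Chil4 was above the floor in 4D(-/-) alone.

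Other genes of alveolar macrophages, 20 over the floor of 27 listed, had smaller differences at their median. In 4D(-/-) 2 were at least 1.5-fold higher and 1 lower than in 4D(+/+), beside 1.1% and 4.53% of all genes, with a median log2 difference of 0.21. Atp6v0d2, a subunit of the proton pump of lysosomes, read 353 in 4D(-/-) and 208 in 4D(+/+), 1.70-fold higher. Olr1, a receptor of oxidised lipoprotein, read 156 and 99.0 in the same arrays, 1.57-fold higher. Cidec, a lipid droplet protein that is also a fat cell gene, was 1.78-fold lower. Siglecf, a defining surface lectin of mouse alveolar macrophages and of eosinophils, read 172 in 4D(-/-), 129 in 4D(+/+), 95.3 in 4B(-/-), 142 in 4B(+/+) and 151 in C57. The 4B(-/-) array was the lowest for Siglecf, with a log2 difference of -0.58 within its line, just inside the threshold, and 4D(-/-) was the highest, 1.33-fold above 4D(+/+). In 4B(-/-) 0 of the 20 passed 1.5-fold against 4B(+/+), beside 0.383% of all genes higher and 0.93% lower. Of the 20, 4D(-/-) was the highest for 5, beside 17.9% of all genes, and the lowest for 4, beside 29.9%. The 4D(+/+) array was the lowest for 9, beside 20.0%. For 4B(-/-) the counts were 5 highest, beside 28.4%, and 2 lowest, beside 18.9%. The 4B(+/+) array was the highest for 6, beside 10.8%.

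Partners of the receptors and enzymes were examined by list. Of 11 GM-CSF and interleukin 3 signalling genes over the floor, 3 were at least 1.5-fold higher in 4D(-/-) and 0 lower, Csf2rb2, Csf2rb and Socs3, a feedback inhibitor of cytokine receptors. Socs3 read 1254 in 4D(-/-), 746 in 4D(+/+), 555 in 4B(-/-), 746 in 4B(+/+) and 726 in C57, so the wild-type arrays were alike, with 4D(-/-) above and 4B(-/-) below them. Csf2, which encodes GM-CSF itself, was 1.04-fold lower in 4D(-/-) than in 4D(+/+), the receptor alpha chain Csf2ra 1.26-fold higher and Cish, a target of STAT5, 1.27-fold higher. The chitinase family held 2 of 7 genes past 1.5-fold in 4D(-/-), which were Chil3 and Chil4, the latter counted through the 4D(-/-) array alone. Its other bright members differed less: Chil1 read 2827 in 4D(-/-) and 2249 in 4D(+/+), and the active chitinase Chia1 read 711 and 650.

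Among 16 scavenger and pattern receptors 2 were higher in 4D(-/-), Marco and Olr1, both counted above, and 0 lower, with a median of 0.17. Of 13 genes of alternative activation and type 2 immunity over the floor, 3 were higher and 0 lower: Chil3, Chil4 and the alarmin Il33, at 1980 in 4D(-/-) and 1189 in 4D(+/+). Chil3 and Chil4 were already counted above, and Chil4 reached the floor in 4D(-/-) alone. Retnla, a small secreted protein of alternatively activated macrophages and airway cells, read 4254 in 4D(-/-) and 2884 in 4D(+/+), and 4112 in 4B(-/-) and 2819 in 4B(+/+), with 4295 in C57. Both knockouts were thus near C57 for Retnla and both wild-type lines below it. Il4 and Il13, the type 2 cytokines, were below the floor in all arrays.

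Of 17 PPAR gamma partners and targets 1 was higher in 4D(-/-), Olr1, already counted above, and 2 were lower, with a median of 0.00. The 2 lower were Fabp4, at 2292 in 4D(-/-) and 6939 in 4D(+/+), and Cidec, both also genes of fat. In 4B(-/-) 1 of the 17 passed 1.5-fold, the coactivator Ppargc1b, at 91.3 against 137 in 4B(+/+), beside 0.93% of all genes that were lower. The fatty acid binding proteins split: Fabp1 was higher in 4D(-/-), Fabp4 was 3.03-fold lower, Fabp3, the muscle and heart form, was 1.83-fold lower, and Fabp5 was 1.17-fold higher. Of 3 leukocyte integrins over the floor 1 was higher in 4D(-/-), the shared beta chain Itgb2, at 843 in 4D(-/-), 523 in 4D(+/+), 632 in 4B(-/-), 838 in 4B(+/+) and 721 in C57. Of 14 lysosomal genes 1 was higher, Atp6v0d2, already counted above, around a median of 0.09.

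Markers of other cells were set beside these values. Monocyte and interstitial macrophage genes held 0 of 11 past 1.5-fold in either knockout comparison, with medians of 0.08 in the 4D line and -0.09 in the 4B line. Dendritic cell genes also held 0 of 8. B-cell genes, 0 of 4 past 1.5-fold, had medians of 0.36 in the 4D line and -0.18 in the 4B line. Alveolar type 2 genes, 0 of 7, had a median of 0.21 in the 4D line and of 0.00 in the 4B line. T-cell genes, 3 of 5 at least 1.5-fold higher in 4B(-/-) than in 4B(+/+), beside 0.383% of all genes, had medians of 0.62 in the 4B line and 0.12 in the 4D line. Of these 3, Cd8a reached the floor in 4B(-/-) alone, so its inclusion depended on the array in which it was high. Cd4, also among the 5, reached it in 4D(-/-) alone. Of 5 eosinophil genes measured 1 passed the floor, and Epx, Prg2, Ccr3 and Il5ra were below it in every array. Neutrophil genes had 3 of 6 lower in 4D(-/-), S100a8, S100a9 and Ltf, and 1 higher, Lcn2, with a median of -0.54 in the 4D line. Csf3r and Mmp9 differed there by 1.02-fold and 1.05-fold. Ngp, Camp, Cxcr2 and Mmp8 were below the floor in every array. In the 4B line 1 of 6, Ltf, was lower in 4B(-/-), beside 0.93% of all genes, with a median of 0.03. The part of any of these cells in the macrophage gene values was not tested.

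Muscle markers were higher in 4D(+/+) than in every other array. The summed intensity of 10 skeletal muscle genes was 9254 in 4D(-/-), against 35822 in 4D(+/+), and 4248 in 4B(-/-), against 8915 in 4B(+/+), with 4575 in C57. The part of muscle and fat in the low values of 4D(+/+) was not tested.

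**Figure D4:**
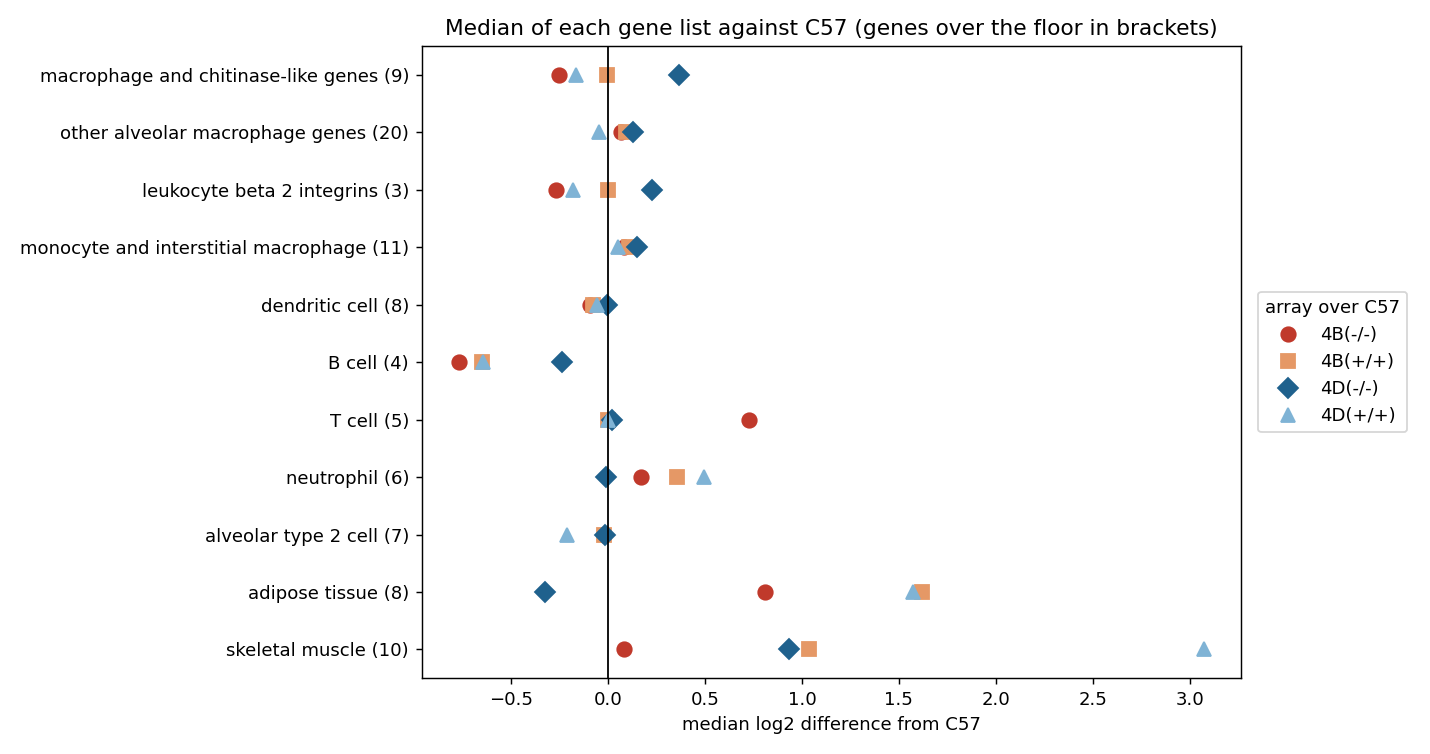
Median log2 difference from C57 of the genes of each list, with 1 symbol per array and the number of genes over the floor in brackets. The macrophage and chitinase-like genes are highest in 4D(-/-), at 0.36, and the muscle list reaches 3.07 in 4D(+/+).

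Genes with a similar profile were sought for the 3 genes whose highest and lowest arrays differed by at least 2-fold, Marco, Chil4 and Csf2rb2. Likeness was the root mean square difference of log2 values over the 5 arrays after centring each gene. Marco was closest to the carboxylesterase Ces1g (0.11), the beta globin Hbb-b2 (0.12) and Csf2rb2 (0.12). Csf2rb2 was closest to the chemokine Ccl5 (0.08), Hbb-b2 (0.09) and Marco. The nearest to Chil4 were Nnt (0.14), the mitochondrial transhydrogenase, the collagen Col1a1 (0.18) and the actin-bundling Fscn1 (0.22), but Chil4 was under the floor in 4 of the 5 arrays, so this likeness is to values near background.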

How the data were processed

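Whole-lung RNA of 5 strains was measured on 1 array each. Per the labels, RNA of 3 of 5 lungs was mixed per strain and biotinylated cRNA was made from 0.3 µg. The authors deposited linear intensities, 1 for every probe set of each array. The submitters' processing notes name RMA, with no version or settings, and the build behind the probe sets is not given in the sources read. RMA makes arrays alike in distribution, so a difference is relative to the rest of the array. Ties are common, with at least 2 arrays equal in 59.7% of probe sets and in 6 of the 15 described. Intensities were converted to log2 here. The platform annotation gave 1 symbol for 34958 of 45101 probe sets, several for 932 and none for 9211. Folds are ratios of intensities of 1 probe set, and no gene's level was set against another's. Summed intensities of marker lists follow their brightest probe sets.

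Each comparison is a difference of 2 arrays, with 1.5-fold as threshold and the share of all genes over the floor beside it. Folds against values under 64 are poorly determined. The number of arrays limits the precision. The genes, lists and thresholds were chosen with earlier results of these data known. Named were all 10 genes, every probe set of their paralogs, up to 4 genes per list with the largest difference in either knockout comparison, and the 3 nearest profiles of genes spanning 2-fold. Lists gave counts and medians over genes at the floor. Listed genes named beyond this rule (Csf2, Csf2ra, Il4, Il13, Fabp2, albumin and 4 eosinophil genes) were chosen after their values were seen. So were Cd4 and the neutrophil genes Csf3r, Mmp9, Ngp, Camp, Cxcr2 and Mmp8. Alternatives were other floors, the median of probe sets, cyclic loess (limma 3.58.1 in R 4.3.3), an added constant of 16 and other wild-type arrays. The mean of C57 and 4B(+/+) as reference, the floor on the mean and the count without 4D(+/+) were added after seeing the data. Simulated data served to test the counting of genes past a threshold. Promoters came from RefSeq tables on GRCm38.p6 and were aligned with Biopython 1.88.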

Additional observations from a re-analysis of the deposited data

Results flagged for a closer look

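For 7 genes the knockout difference had opposite signs in the 2 lines, higher in 4D(-/-) than in 4D(+/+) and lower in 4B(-/-) than in 4B(+/+). The log2 difference of the PDE4D line minus that of the PDE4B line was 1.51 for Csf2rb2, 1.28 for Chil4, 1.05 for Fabp1, 0.87 for Cd68, 0.82 for Chil3, 0.57 for Itgax and 0.29 for Mrc1. Each of these rests on 4 arrays, 1 per strain, and was not tested. Chil4 was below the floor in 3 of those 4 arrays, and 22.1% of all genes had the same arrangement of signs.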

How the results depend on the processing

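Among the counts and medians recomputed under alternatives, 107 values stayed within 1.5 times the count or 1.2-fold of the median, and 9 did not. Many of the 107 were counts of 0 that stayed at 0, as in 4B(-/-) over 4B(+/+) and 4B(+/+) over C57. The total of 107 is therefore no measure of stability. All 9 values that moved belonged to 4D(-/-) over 4D(+/+) or to 4D(+/+) over C57. Differences of at least 1.5-fold kept their direction throughout. Values near 0 changed sign in places: the median for 4B(+/+) over C57 was 0.005 with cyclic loess against -0.006, Marco in the 4B line was -0.006 with cyclic loess and -0.046 with the median of probe sets against 0.009, and Msr1 in the 4B line was -0.076 with the median of probe sets against 0.07. The number of genes at least 1.5-fold higher in 4D(-/-), 5 against 4D(+/+), was 3 with a 2-fold threshold. It was 4 against the 3 wild-type arrays averaged, which include 4D(+/+), 2 against C57 and 2 against C57 averaged with 4B(+/+). The median of 0.63 was 0.36 against C57, 0.36 against the 3 wild-type arrays averaged and 0.24 against C57 averaged with 4B(+/+), a reference chosen after seeing the data. The 4D(+/+) array was the lowest for 5 of the 9 genes, and the cause was not tested. The 2 genes lower in 4D(+/+) than in C57 were 1 with the median of probe sets, 1 with 16 added to each intensity and 0 at 2-fold. Among single genes, Marco in the PDE4D comparison was 1.03 on the log2 scale with the median of its probe sets, and Chil4 was 0.90 with 16 added; 58 other values for single genes stayed within 1.2-fold. With the floor on the mean of the arrays Chil4 drops out and 4 of 8 genes were past 1.5-fold. No paired analysis was possible because each strain had 1 array. No replicate could be left out for the same reason.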

Other observations

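Ear3, a ribonuclease gene of the eosinophil-associated family that mouse alveolar macrophages also express, was singled out after its values were seen. It read 117 in 4B(-/-), against 213 in 4B(+/+), and 229 in 4D(-/-), against 99.2 in 4D(+/+), with 189 in C57. The 4B(-/-) and 4D(+/+) arrays were low and the other 3 arrays high, with 1.82-fold within the 4B line. Its probe set is one that can also bind related transcripts of the family.

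Nnt, also singled out after its values were seen, read 1212 in 4D(-/-), 569 in 4D(+/+), 345 in 4B(-/-), 442 in 4B(+/+) and 509 in C57. The 4D(-/-) array was the highest by a wide margin. As background, the C57BL/6J strain carries a partial deletion of Nnt, and the lines had another strain in their ancestry; the part of ancestry in these values was not tested.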
